A study of Mus musculus with 12 samples.

Results

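Blood neutrophils carry RNA of the JAK-STAT pathway, through which cytokine receptors reach the nucleus, and 9 genes of that pathway are described here: the transcription factor genes Stat4, Stat2, Stat3, Stat5a, Stat5b and Stat6, and the Janus kinase genes Jak1, Jak2 and Tyk2. They were taken by gene name from a table of 11494 listed genes. Stat4 was picked because its level differed between the groups, so its difference is given as a description without a test. The other 8 were added as relatives of it by name.

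The libraries came from LOY transplant mice, whose genotype label is LOY, and from control transplant mice, whose genotype label is Control, with 6 libraries in each group and the treatment label Control in both. LOY means loss of the Y chromosome, and BMT in the labels is bone marrow transplantation. The series title places that loss in blood-forming cells and ties the study to cardiac fibrosis and heart failure. Each library was made from 10000 sorted blood cells that were positive for the neutrophil surface protein Ly6G, negative for the monocyte receptor CD115 and positive for a red fluorescent protein (RFP). The sources used here do not give strain, age, the way the Y chromosome was lost or whether each library is a separate mouse. The p-values therefore measure the spread between libraries, which may be technical.

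When a cytokine binds its receptor, Janus kinases attached to the receptor's tail phosphorylate it and then the STAT proteins that dock there. Phosphorylated STATs pair, enter the nucleus and bind DNA, often at the palindromic GAS element. Each receptor uses its own set: in T and NK cells, interleukin 12 acts through Jak2, Tyk2 and Stat4 to drive interferon gamma, type I interferon acts through Jak1, Tyk2 and Stat2, granulocyte colony-stimulating factor acts mainly through Stat3, and interleukin 4 acts through Stat6.

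Recovered reads ranged from 17097739 to 19616066 in LOY libraries and from 13743581 to 18459792 in control libraries. The summed level of the Y-linked genes Ddx3y and Eif2s3y was 40.1% of the control mean in LOY 4, 3.24% in LOY 5 and 0.0792% to 0.529% in the other LOY libraries. Control 1, 2 and 12 stood apart with 20.5%, 21.7% and 17.3% of listed genes at 0, against 6.59% to 11.6% in LOY libraries and 9.33% to 11.1% in the other control libraries. Neutrophil markers were present: all 10 of the list were in the table, S100a8 and S100a9 were the most abundant genes of all by mean level, and Ly6g itself averaged 1875 ± 730 normalized reads in LOY and 2765 ± 1330 in control libraries (SD, n = 6 each).

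Sequence decides how surely a read can be given to a member. Stat5a and Stat5b, the twin mediators of growth hormone, prolactin and GM-CSF signals, lie side by side on chromosome 11 and share coding sequence. Their longest identical coding run is 324 bases and starts at base 571 of both coding sequences (GENCODE vM21, counted from the A of the start codon). Its first 150 bases are shown because reads that fall wholly inside it could come from either gene:
Stat5a and Stat5b: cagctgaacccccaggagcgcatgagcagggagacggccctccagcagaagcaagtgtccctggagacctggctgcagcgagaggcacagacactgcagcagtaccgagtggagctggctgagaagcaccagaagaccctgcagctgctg

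Of all stretches of 50 bases in Stat5a transcripts, 8.52% also occur in transcripts of another gene, and the share was 10.98% for Stat5b, so the split of their counts is uncertain. Stat4 (chromosome 1, 51987148 to 52107189, plus strand, GRCm38) shared 1033 of its 3872 exon bases with Gm28177, a readthrough transcript on the same strand, and the sources used here do not say how reads in that stretch were counted. Tyk2 shared 554 of 6865 exon bases with 1700084C06Rik on the opposite strand, and the kit does not mark strand. The other members lie elsewhere in the GRCm38 genome. Stat2 spans 128270559 to 128292849 and Stat6 127642986 to 127660957 on chromosome 10, both on the plus strand. Stat5b (100780731 to 100850724, minus strand), Stat5a (100859351 to 100885169, plus strand) and Stat3 (100885098 to 100939540, minus strand) follow each other on chromosome 11, and Stat5a and Stat3 overlap by 72 exon bases on opposite strands. Jak1 lies on chromosome 4 (101152367 to 101265282, minus strand), Jak2 on chromosome 19 (29251828 to 29313080, plus strand) and Tyk2 on chromosome 9 (21104068 to 21131243, minus strand). Stat6, Jak1 and Jak2 had 0 stretches of 50 bases in common with any other gene, Stat2 had 0.788% and Stat3 0.555%. By the same measure Stat4 had the highest share of the 9 members, 21.7%, all with Gm28177, and Tyk2 had 7.52%.

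The 250 bases before a Stat4 start site are shown as a promoter window of the gene that leads these results, beside those of Socs3, a STAT-induced feedback inhibitor whose window holds a GAS element, in capitals (RefSeq sequences, GRCm38.p6; chr1:51986898-51987147, plus strand, and chr11:117969367-117969616, minus strand):
Stat4: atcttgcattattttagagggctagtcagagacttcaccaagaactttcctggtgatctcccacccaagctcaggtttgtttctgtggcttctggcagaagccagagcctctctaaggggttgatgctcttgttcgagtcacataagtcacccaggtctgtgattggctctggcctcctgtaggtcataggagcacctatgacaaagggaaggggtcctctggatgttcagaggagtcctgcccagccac
Socs3: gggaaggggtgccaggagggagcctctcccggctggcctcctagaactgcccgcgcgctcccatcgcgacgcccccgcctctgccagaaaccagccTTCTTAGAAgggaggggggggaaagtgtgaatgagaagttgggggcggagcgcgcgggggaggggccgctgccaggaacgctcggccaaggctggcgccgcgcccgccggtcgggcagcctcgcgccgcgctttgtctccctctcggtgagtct

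The GAS letters TTCNNNGAA, which read the same on both strands, were in windows of 250 bases of 0 of the 9 members and of 8.13% of 27025 RefSeq genes. The same element with 4 bases between its arms, which Stat6 prefers, was in 1 member, Stat2, and in 6.76% of genes. A gene with more than 1 window counted if any of them matched. Stat4 has a further window, at 52007990 to 52008239 on chromosome 1, not shown, which held neither form. The GAS letters were also in windows of 4 of 10 known STAT4 target genes and 4 of 16 Stat3, Stat5 and Stat6 target genes. For JAK-coupled receptor genes the count was 5 of 25, for ligand genes 1 of 10, for negative regulator genes 1 of 12 and for cofactor genes 0 of 7. These matches are letters in a window and were not tested as binding sites.

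Stat4 was lower in LOY neutrophils. Its normalized reads were 391.5 in LOY 4, 684 in LOY 5, 713 in LOY 9, 564 in LOY 10, 271 in LOY 15 and 539 in LOY 19, against 874 in Control 1, 1738 in Control 2, 859 in Control 6, 1615 in Control 12, 773 in Control 17 and 1225 in Control 18. The groups did not overlap: the highest LOY library, LOY 9, lay 60.5 normalized reads below the lowest control library, Control 17. Means were 527 ± 170 in LOY and 1181 ± 416 in control libraries (SD, n = 6 each), so the LOY mean was 44.7% of the control mean. Stat4 was picked on this contrast, so the separation supports nothing further. Over all genes tested, 0.113% lay below every control library in all 6 LOY libraries. In bulk RNA, fewer cells of a type and less RNA per cell cannot be told apart.

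The fitted Stat4 difference was −1.16 ± 0.29 (SE) on the log2(value + 1) scale, in a linear model fitted with limma to all 9742 tested genes. It was −1.16 in the authors' deposited table too, the same value as with DESeq2 on recovered reads, so the deposited value is not a separate result. Both genes that passed the limma threshold were higher in LOY libraries, so Stat4 was not among them. The authors' own comparison, by a test that no source used here names, did place Stat4 under 0.05 (adjusted p = 0.0319). Because Stat4 was picked on this contrast, neither outcome counts as a test of it. The 2 control libraries with the highest Stat4, Control 2 and Control 12, are among the 3 with many genes at 0. With Control 6, 17 and 18 as the only controls, the control mean was 952 ± 240 (SD, n = 3), the LOY mean was 55.4% of it, and the fitted difference was −0.90. The part of the genes at 0 in the Stat4 difference was not tested beyond these values. LOY 15, the lowest library for Stat4, also had the highest erythroid marker total, 38020.5 per 1000000 normalized reads, against 5906 to 11137 in the other LOY libraries and 4283 to 8890 in control libraries, and without it the fitted difference was −0.99. LOY 4, the LOY library with most Y-linked RNA, had the second lowest Stat4.

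**Figure D1:**
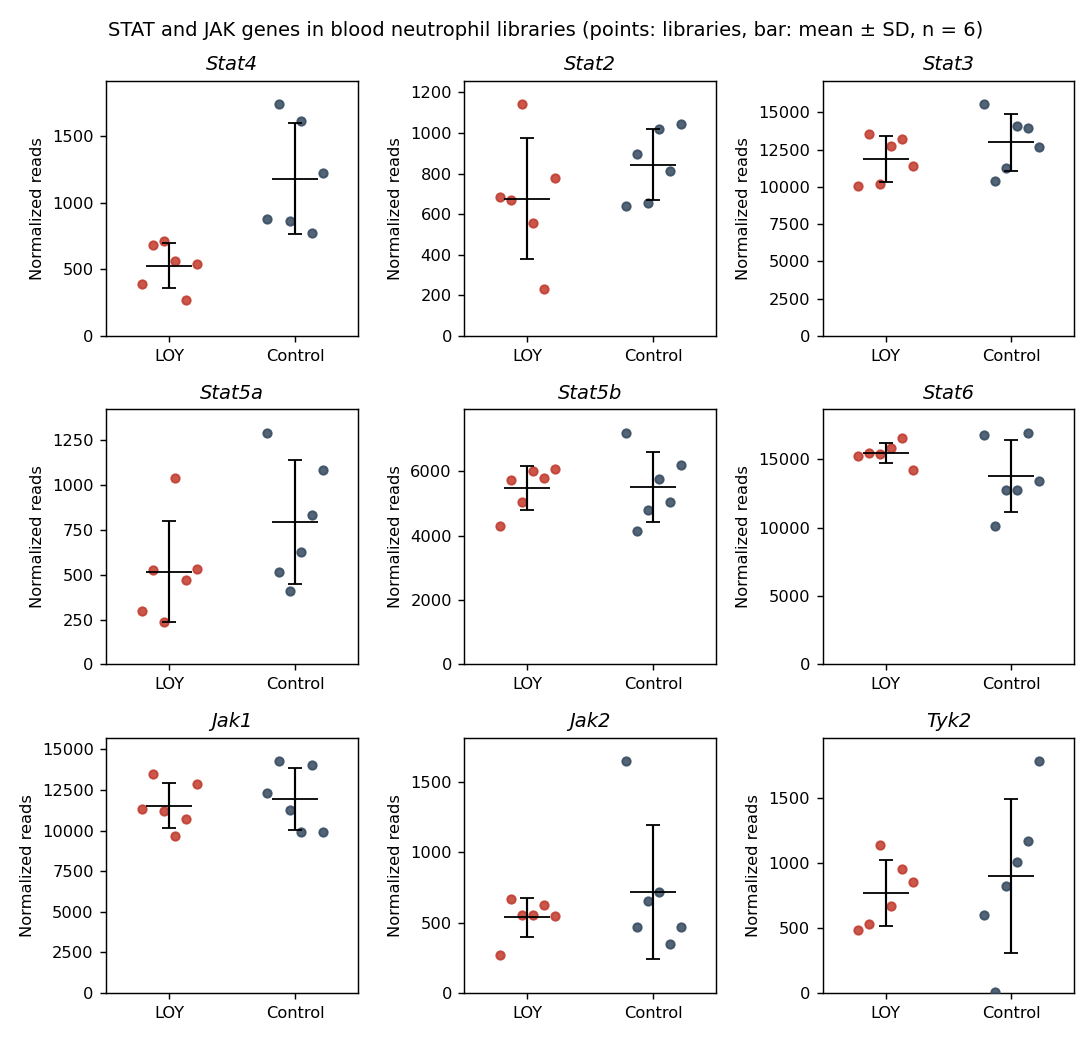
Normalized reads of each gene (linear axes from 0) in the 6 LOY and 6 control libraries, points for libraries and bars for mean ± SD. The groups are apart for Stat4, with LOY libraries at 271 to 713 and control libraries at 773 to 1738, and overlap for the other 8 genes.

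T and NK cells are the best known users of Stat4, so their markers were read beside it. Of 20 T and NK markers 4 were in the table (Cd3d, Cd3g, Lck and Nkg7), each at a low level. Their total was 5.72 to 15.3 per 1000000 normalized reads in LOY libraries and 7.43 to 28.2 in control libraries, with means of 10.2 ± 3.72 and 18.0 ± 8.29 in LOY and control libraries (SD, n = 6 each; exact permutation test, two-sided p = 0.0606, adjusted p = 0.182 over 3 marker totals). Lck was at 0 in 5 of 6 LOY and 4 of 6 control libraries, and Nkg7 in 4 of 6 LOY and 5 of 6 control libraries. Per kb of exon, Stat4 stood at 136 normalized reads in LOY and 305 in control libraries, above the T cell receptor subunit genes Cd3d (54.7 in LOY and 75.4 in control libraries) and Cd3g (12.1 in LOY and 40.2 in control libraries). Among LOY libraries the marker total was 5.72 in LOY 9, 6.32 in LOY 10, 9.59 in LOY 4, 11.3 in LOY 19, 12.7 in LOY 5 and 15.3 in LOY 15, and among control libraries it was 7.43 in Control 17, 9.17 in Control 2, 17.8 in Control 6, 21.5 in Control 1, 24.2 in Control 12 and 28.2 in Control 18. Control 17 had both the lowest control Stat4 and the lowest control total, and Control 12 and 18 were high in both, while Control 2 had the highest Stat4 with a low total. LOY 15 had the highest LOY total with the lowest Stat4, and LOY 9 the lowest LOY total with the highest LOY Stat4. The part of T and NK cell RNA in the Stat4 difference was not tested.

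The B cell marker total averaged 46.9 ± 39.1 per 1000000 in LOY and 51.2 ± 29.8 in control libraries (adjusted p = 0.827, exact permutation test, two-sided, n = 6 each), led by Cd79a. The total of 6 monocyte markers averaged 1237 ± 170 in LOY and 1104 ± 269 in control libraries (adjusted p = 0.503, same test, n = 6 each), led by Csf1r, the gene of the CD115 receptor that the sort selected against, and Cd68. The 4 tested monocyte markers did not share a sign: the fitted difference was 0.45 for Csf1r, −0.57 for Ly6c2, −0.23 for Adgre1 and −0.08 for Cd68. Irf8 and F13a1, the untested markers of the 6, fell under a filter on low values and were at 0 in 6 of 6 control libraries. In LOY libraries Irf8 stood at 74.7 ± 88.2 normalized reads, with 1 of 6 at 0, and F13a1 at 36.2 ± 59.0, with 4 of 6 at 0. Dendritic markers, led by Itgax and Bst2, totalled 52.2 to 109 per 1000000 in LOY and 38.1 to 92.8 in control libraries. Eosinophil and basophil markers, led by Ccr3 and Ms4a2, totalled 2.16 to 19.3 in LOY and 0.0610 to 27.7 in control libraries, and platelet markers, led by Pf4 and Ppbp, 32.8 to 90.6 in LOY and 30.3 to 100.1 in control libraries. The erythroid total, led by the globin genes Hba-a1 and Hbb-bs, had a median of 7512 per 1000000 in LOY and 5559 in control libraries, with means of 12778 ± 12508 in LOY and 5975 ± 1676 in control libraries (SD, n = 6 each). All 8 erythroid markers had a fitted difference above 0, with a median of 0.73 beside 0.14 for all tested genes. Of the 8, 0 passed (limma), beside 0.0205% of all genes, and 1 had an unadjusted p under 0.05, beside 6.04% of all genes. That gene was Tfrc, named after its values were seen, at 62.2 ± 54.0 normalized reads in LOY and 1.93 ± 4.22 in control libraries. The part of erythroid RNA in the Stat4 difference was not tested beyond the value without LOY 15. The ranges of LOY and control libraries overlapped for each of these totals.

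**Figure D2:**
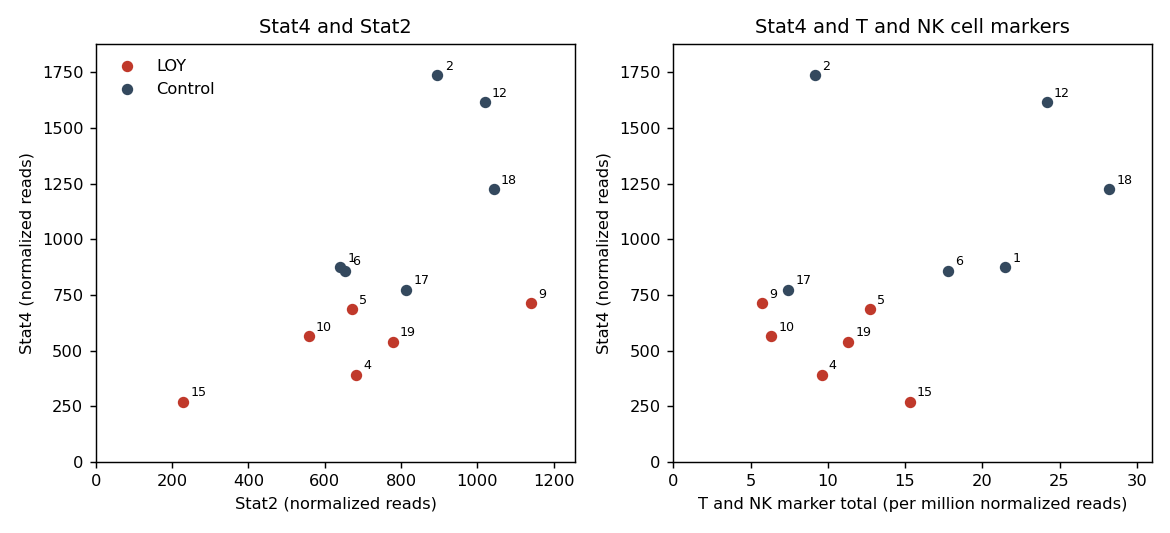
Stat4 normalized reads in each library against Stat2 normalized reads (left) and against the summed T and NK markers per 1000000 normalized reads (right), with library numbers beside the points. LOY libraries lie at or below 713 for Stat4 at every level of Stat2, and of the controls, Control 12 and 18 are high in both Stat4 and the marker total, Control 17 is low in both, and Control 2 has the highest Stat4 with a total of 9.17.

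None of the other 8 members passed the test between LOY and control neutrophils (limma, 0 of 8 at an adjusted p under 0.05, beside 0.0205% of all genes tested). EdgeR and DESeq2, run on recovered reads, also called 0 of the 8, beside 0% and 0.484% of all genes. At an unadjusted p under 0.05 there were 0 of the 8 with each tool, beside 6.04% of all genes with limma, 2.94% with edgeR and 5.55% with DESeq2. In the authors' deposited table the log2 fold changes of the 8 ran from −0.62 for Stat5a to 0.16 for Stat6. A p that misses the threshold does not show equal levels, and the 95% intervals below give the sizes that these libraries leave possible. The median gene of all tested lay at 0.14 on the same log2 scale, and at 0.00062 after quantile normalization, so small differences should be read against that shift.

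Among the STATs, Stat2, which carries the type I interferon signal together with Irf9, ranged from 229 over a median of 677 to 1142 normalized reads in LOY libraries and from 641 over 855 to 1043 in control libraries. LOY libraries held both extremes: LOY 15 was the lowest of all 12 and LOY 9 the highest. The fitted difference was −0.44 ± 0.32 (SE, 95% interval −1.14 to 0.27, limma adjusted p = 0.84). It was −0.16 without LOY 15 and −0.62 without LOY 9.

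Stat5a ranged from 238 over a median of 499 to 1039 normalized reads in LOY libraries and from 409 over 730.3 to 1290.3 in control libraries. LOY 4 and LOY 9 lay below every control library, whereas LOY 10 stood above the other 5 LOY libraries, which reached at most 532, and inside the control range. The fitted difference was −0.66 ± 0.38 (95% interval −1.49 to 0.16, limma adjusted p = 0.821). It was −0.44 with genes at 0 as a covariate and −0.90 without LOY 10. Its twin Stat5b was far more abundant, at 4316 over 5759.5 to 6091 in LOY and 4142 over 5409 to 7206 in control libraries, with a difference of 0.01 ± 0.14 (−0.29 to 0.30; adjusted p = 0.995, limma). All 6 LOY values of Stat5b fell inside the control range. Per kb of exon, Stat5b exceeded Stat5a by 16.4 ± 6.57 times in LOY and 9.95 ± 3.14 times in control libraries (SD, n = 6 each). The shared sequence and the choice of exon length make these ratios uncertain.

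Stat3, the main STAT of G-CSF signalling in neutrophils, ranged from 10034 over 12079 to 13566 normalized reads in LOY and from 10425 over 13310.2 to 15550.3 in control libraries. Its difference was −0.13 ± 0.11 (95% interval −0.38 to 0.12, limma adjusted p = 0.855). It was −0.07 without Control 1 and −0.19 without Control 2. Stat6, which answers interleukin 4 and interleukin 13, ranged from 14243.5 over 15438 to 16535.5 in LOY and from 10097 over 13122 to 16960.5 in control libraries. LOY libraries were tightly grouped inside the wider control range, and the difference was 0.18 ± 0.11 (−0.06 to 0.43, limma adjusted p = 0.823). It was 0.10 without Control 2, 0.11 with genes at 0 as a covariate and 0.25 without Control 17.

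**Figure D3:**
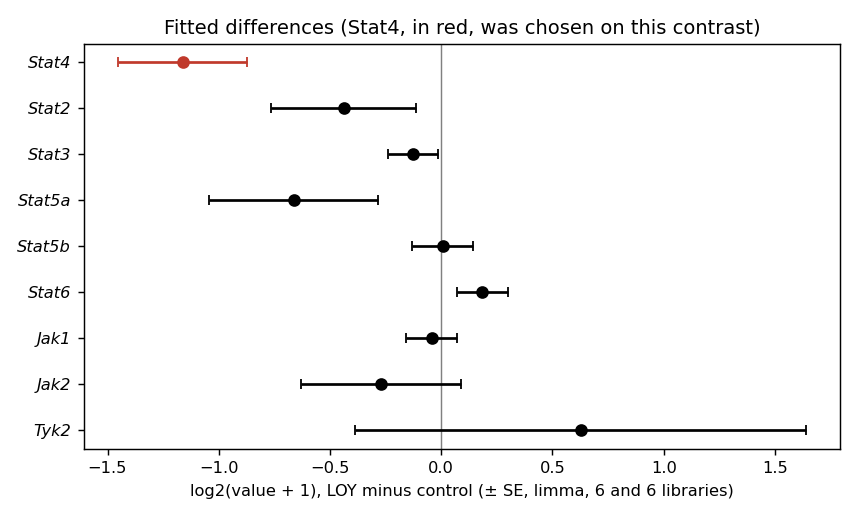
Fitted difference between LOY and control libraries on the log2(value + 1) scale, with the SE from limma over 6 and 6 libraries. Stat4, in red, lies at −1.16 and was chosen on this contrast, while Jak1, Stat3, Stat5b and Stat6 have the narrowest errors and lie between −0.13 and 0.18.

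The Janus kinases split into 1 abundant and 2 scarce genes. Jak1, used by interferon, interleukin 6 family and common gamma chain receptors, ranged from 9690.3 over 11272 to 13489.6 normalized reads in LOY and from 9905 over 11770.1 to 14277 in control libraries. Its difference was −0.04 ± 0.12 (95% interval −0.29 to 0.21; limma adjusted p = 0.946). Jak2, the kinase of the interleukin 12, GM-CSF and G-CSF receptors, ranged from 267 over 556 to 667 in LOY and from 347 over 559.998 to 1648 in control libraries. Control 1 alone lay above 720 normalized reads, and LOY 4 alone lay below every control library. The fitted difference was −0.27 ± 0.36 (−1.05 to 0.51, limma adjusted p = 0.887). It was 0.01 without Control 1 alone, −0.08 without LOY 4 alone and 0.13 without Control 1, 2 and 12 together. Without Control 17 alone it was −0.44.

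Tyk2, the partner of Jak1 and Jak2 at the interferon and interleukin 12 receptors, ranged from 480.3 over 761 to 1134 normalized reads in LOY and from 10.2 over 913 to 1781 in control libraries. The low value belongs to Control 2, the library with most genes at 0. The fitted difference was 0.63 ± 1.01 (95% interval −1.57 to 2.83; limma adjusted p = 0.911) with all libraries, −0.45 without Control 2 and −0.21 with edgeR on all libraries, beside means of 769 ± 254 in LOY and 898 ± 591 in control libraries (SD, n = 6 each).

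Levels of different genes can be set side by side per kb of exon, with the exons of all annotated transcripts of a gene merged. The transcripts present may be shorter, so the order depends on this length. In mean normalized reads Stat3 exceeded Jak1 in LOY (11863 and 11544.5) and in control libraries (12984 and 11950). Stat2 exceeded Stat4 in LOY (677 and 527) but not in control libraries (844 and 1181). In LOY libraries the order was Stat6 at 3513 ± 172 normalized reads per kb, Jak1 at 1597 ± 194, Stat3 at 1245 ± 161, Stat5b at 993 ± 124, Stat4 at 136 ± 44.0, Stat2 at 114 ± 50.1, Tyk2 at 112 ± 37.0, Jak2 at 107 ± 27.9 and Stat5a at 72.5 ± 39.7 (SD, n = 6). In control libraries the order was Stat6 at 3136 ± 598, Jak1 at 1653 ± 268, Stat3 at 1363 ± 201, Stat5b at 998 ± 198, Stat4 at 305 ± 107, Jak2 at 143 ± 94.7, Stat2 at 142 ± 29.4, Tyk2 at 131 ± 86.1 and Stat5a at 111 ± 48.0. Library ranges of neighbours were apart between Stat6 and Jak1 and between Stat5b and Stat4 in both groups, and overlapped for the other neighbours. Jak1 exceeded Stat3 in 6 of 6 LOY and 5 of 6 control libraries, and Stat3 exceeded Stat5b in 6 of 6 of each. Stat4 exceeded its next neighbour in 4 of 6 LOY libraries (Stat2) and in 5 of 6 control libraries (Jak2).

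**Figure D4:**
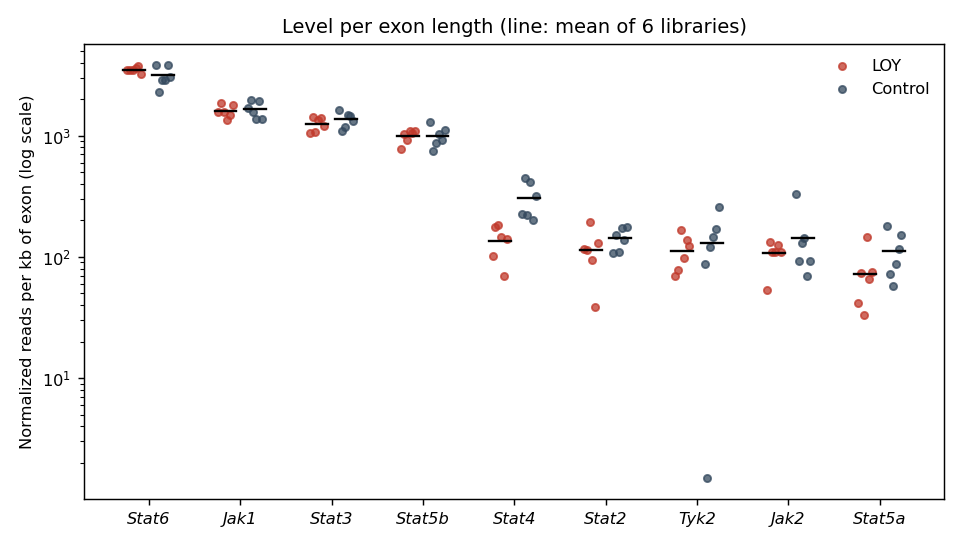
Normalized reads per kb of exon (log axis) for each gene in LOY and control libraries, in the order of the LOY means, with points for libraries and lines for means of 6. A step separates the 4 abundant genes, Stat6, Jak1, Stat3 and Stat5b, from the 5 scarcer ones, and the lone point near the bottom is Tyk2 in Control 2.

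Stat4 made up 1.53% ± 0.496 of the reads of the 6 STATs in LOY libraries and 3.51% ± 1.63 in control libraries (SD, n = 6 each), and the sum over the 6 was 34549 ± 2455 in LOY and 35133 ± 5216 normalized reads in control libraries. The sum of the 3 kinases was 12851 ± 1416 in LOY and 13564 ± 1594 in control libraries.

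Within the groups, Stat4 moved most like a few genes from outside the pathway. After each group's mean was subtracted, Pearson correlations with Stat4 over the 12 libraries were highest for Bcap31 (0.94), which encodes an endoplasmic reticulum protein, the insulin receptor gene Insr (0.89), the glycerol phosphate acyltransferase gene Gpat3 (0.87), Anp32a (0.86) and Bmt2 (0.84), out of 6788 genes with a mean of 100 or more. They were lowest for the translation factor subunit gene Eif3i (−0.84), Galm (−0.79), the ubiquitin ligase genes Ubr2 (−0.79) and Rnf115 (−0.78), and the transglutaminase gene Tgm1 (−0.78). Without Control 1, 2 and 12 the 5 highest stood at 0.81 to 0.91, although 0 of them remained among the top 5. The 5 lowest then stood at −0.79 to −0.635, and 0 of them remained among the lowest 5. Of the other members Stat2 was nearest, at 0.75 and rank 20, and at 0.83 without those libraries, while Stat6 was farthest, at −0.62, and at −0.38 without them. The points share library, depth and the number of genes at 0, so these values are descriptions.

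The rest of the pathway was read from lists ordered by role. Of 18 ligand genes of JAK-coupled receptors 6 were in the table and 5 were tested, of which 0 passed (limma, 1 at an unadjusted p under 0.05; edgeR called 0, with 1 at an unadjusted p under 0.05). That gene was Ebi3, the shared subunit of interleukins 27 and 35, at 1505 ± 152 normalized reads in LOY and 2211 ± 348 in control libraries (−0.55 ± 0.13 SE, limma adjusted p = 0.385). DESeq2 called it, beside 0.0897% of all genes called lower in LOY. The other subunit gene of interleukin 27, Il27, stood at 81.2 ± 53.1 in LOY and 46.9 ± 68.6 in control libraries (2.31 ± 1.15). The lowest control value of Il27 was 1.28, against a control median of 19.0, and the log2 ratio of its means was 0.79. Osm, the oncostatin M gene, stood at 4394 ± 1010 in LOY and 4527 ± 1084 in control libraries, Il15 at 3103 ± 325 in LOY and 3407 ± 601 in control libraries, and Clcf1 at 28.2 ± 26.5 in LOY and 24.5 ± 32.2 in control libraries. Il12a was at 0 in 3 of 6 LOY and 4 of 6 control libraries and fell under the filter on low values.

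Of 32 receptor genes 22 were in the table and 18 were tested, of which 0 passed (limma, 0 at an unadjusted p under 0.05). EdgeR called 0 of the same 18, with 0 at an unadjusted p under 0.05. DESeq2, run without the filter on low values, called 0 of all 22, with 1 at an unadjusted p under 0.05. The limma difference was above 0 for 10 genes and below 0 for 8, with a list median of 0.09 beside 0.14 for all tested genes. The interleukin 12 receptor genes Il12rb1 and Il12rb2 were not among the genes listed. Csf3r, the G-CSF receptor gene, was the sixth most abundant gene in the table, at 165891 ± 13779 normalized reads in LOY and 149726 ± 23830 in control libraries (0.16 ± 0.11). Csf2rb, the beta chain of the GM-CSF receptor, stood at 14620 ± 1898 in LOY and 14167 ± 1828 in control libraries (0.04 ± 0.11). Ifngr1, the ligand-binding chain of the interferon gamma receptor, stood at 7402 ± 1124 in LOY and 5813 ± 1762 in control libraries (0.39 ± 0.19), and the interleukin 4 receptor gene Il4ra at 8209 ± 361 in LOY and 6718 ± 1642 in control libraries (0.34 ± 0.18). Ifnar1, of the type I interferon receptor, was at −0.28 ± 0.19. The lowest adjusted p of the list was 0.81 (limma).

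Negative regulators gave 0 calls among 17 tested genes (limma, 0 at an unadjusted p under 0.05). EdgeR called 0 of the same 17, with 1 at an unadjusted p under 0.05. DESeq2, without the filter on low values, called 0 of 19, with 2 at an unadjusted p under 0.05. The limma list median was 0.05. The phosphatase genes Ptpn6, which encodes SHP-1, and Ptprc, which encodes CD45, were the most abundant. Ptpn6 stood at 34442 ± 3023 normalized reads in LOY and 34682 ± 4403 in control libraries (−0.00 ± 0.09), and Ptprc at 37830.3 ± 3412 in LOY and 34523 ± 5384 in control libraries (0.14 ± 0.11). Pias4, a SUMO ligase that restrains STATs, stood at 744 ± 160 in LOY and 537 ± 178 in control libraries (0.51 ± 0.26, limma adjusted p = 0.81). Usp18, which limits type I interferon signalling, was at −0.36 ± 0.26, and Socs7 at 1.44 ± 1.05, from 49.6 ± 40.9 in LOY and 18.7 ± 19.5 in control libraries. Socs3, shown above for its GAS element and named after its values were seen, stood at 10302 ± 3414 in LOY and 8420 ± 1148 in control libraries (0.23 ± 0.21).

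STAT cofactors gave 0 calls among 10 tested genes (limma, 0 at an unadjusted p under 0.05; edgeR and DESeq2 called 0, with 0 and 1 at an unadjusted p under 0.05), with a list median of −0.04. Irf9, the DNA-binding partner of Stat2, stood at 2660 ± 373 normalized reads in LOY and 2389 ± 574 in control libraries (0.19 ± 0.18). The corepressor gene Ncor1 was at −0.48 ± 0.24. The deacetylase gene Hdac3, whose protein acts with that of Ncor1, was at 1.06 ± 0.76, from 472 ± 178 in LOY and 343 ± 258 in control libraries. Its lowest control value was 18.3, against a control median of 371, and the log2 ratio of its means was 0.46. The coactivator gene Ncoa1 was at 0.50 ± 0.49, from 479 ± 161 in LOY and 401 ± 239 in control libraries, and the log2 ratio of its means was 0.26.

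Genes that STAT4 is known to induce in T and NK cells were taken as a list because Stat4 leads these results. Of 12, 6 were in the table and tested, and 0 passed (limma, 0 at an unadjusted p under 0.05; edgeR and DESeq2 called 0, with 0 and 0 at an unadjusted p under 0.05), with a median of 0.13 against 0.14 for all tested genes. Il18rap, an interleukin 18 receptor chain, stood at 4944 ± 654 normalized reads in LOY and 5197 ± 938 in control libraries (−0.06 ± 0.14), and its partner Il18r1 at 125 ± 135 in LOY and 50.8 ± 61.1 in control libraries (1.97 ± 1.35). The transcription factor gene Irf1 stood at 10719 ± 2774 in LOY and 9031 ± 2275 in control libraries (0.25 ± 0.19), Hlx at 410.1 ± 281 in LOY and 687 ± 425 in control libraries (−0.65 ± 0.51), and the protease gene Furin at 1523 ± 222 in LOY and 1413 ± 723 in control libraries (0.29 ± 0.34). Ifng, Tbx21, Gzmb and Prf1 were not among the genes listed.

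Targets of Stat3, Stat5 and Stat6 gave 0 calls among 15 tested genes (limma, 0 at an unadjusted p under 0.05). The limma difference was above 0 for 7 genes and below it for 8, with a median of −0.07. EdgeR called 0 of the same 15, with 1 at an unadjusted p under 0.05. DESeq2, without the filter on low values, called 0 of 16, with 2 at an unadjusted p under 0.05. The immediate early genes Junb and Fos were the most abundant, at 46693 ± 8588 and 38498 ± 8035 normalized reads in LOY libraries and 41593 ± 4652 and 32541 ± 6859 in control libraries. The smallest p belonged to Bcl3, a coactivator of NF-kB and a Stat3 target, at 541 ± 199 in LOY and 862 ± 399 in control libraries (−0.65 ± 0.30, limma adjusted p = 0.81). Cebpb, a granulopoiesis factor gene, was at 136 ± 29.8 in LOY and 298 ± 258 in control libraries (−0.83 ± 0.46), and Bcl6 at −0.26 ± 0.17.

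**Figure D5:**
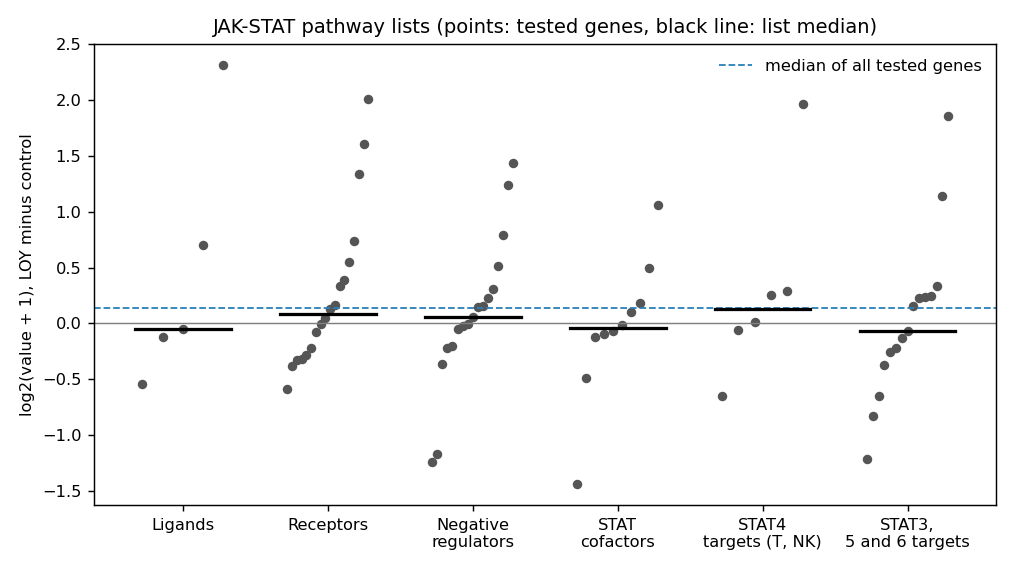
Fitted differences of the tested genes of 6 pathway lists (log2(value + 1), LOY minus control), each point a gene, with the list median in black and the median of all tested genes, 0.14, as a dashed line. The list medians lie between −0.07 and 0.13, and no point passed the limma threshold.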

How the data were processed

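RNA was measured in 12 libraries, 6 LOY and 6 control. Per the labels' protocols, cDNA was made with SMART-Seq v4 and libraries with Nextera XT; of tools and builds, the submitters' processing notes list STAR 2.5.2b, Trimmomatic 0.36, Subread 1.5.2, featureCounts, bcl2fastq 2.17, and GRCm38 or mm10. The authors deposited a normalized signal per gene and library. Its values were whole multiples of 1 step per library within 0.02 reads, for 100% of values above 0, so reads could be recovered. The authors' log2 fold changes and p-values stand in the same table, per the file headers, and no source used here names the tool behind them. For all 9 members these fold changes matched those of DESeq2 on recovered reads, such as −0.616 for Stat5a and −0.417 for Jak2 in both. Gene names turned into dates (16) were replaced by identifier. Genes with a mean below 8.63 were not listed.

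The test was limma 3.58.1 (R 4.3.3; trended, robust) on log2(value + 1), for the 9742 genes that reached 10 in 6 libraries or more, all 9 members among them, with Benjamini-Hochberg adjustment over all of them at 0.05. Marker totals were compared by exact permutation over 924 splits (scipy 1.17.1; smallest p 0.00216). Exon lengths, with the exons of all annotated transcripts of a gene merged, came from GENCODE vM21 (GRCm38), in which 11472 identifiers were found. Alternatives were edgeR 4.0.16 and DESeq2 1.42.0 on recovered reads, other normalizations, filters and pseudocounts, a covariate for each library's genes at 0, and libraries left out. The scripts were tested on simulated data. The members and lists were chosen with earlier results of these data known. The rule for named genes took all members, of each pathway list the 4 genes with the smallest p and the 2 most abundant, the 2 most abundant of each other cell type list, and the 5 highest and 5 lowest correlations with Stat4. Some genes that this rule takes are not reported here.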

Additional observations from a re-analysis of the deposited data

Results flagged for a closer look

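Each member was looked at within each group for a library far from the other 5, by Dixon's test at the 95% level, in 18 groups of values, of which chance flags about 1 in 20. Jak2 in LOY 4 stood at 267 normalized reads, against 549 to 667 in the other LOY libraries. Jak2 in Control 1 stood at 1648, against 347 to 720 in the other control libraries. Stat5a in LOY 10 stood at 1039, against 238 to 532 in the other LOY libraries. LOY 4 is the LOY library with most Y-linked RNA, and Control 1 has 20.5% of listed genes at 0. The part of either in these values was not tested.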

How the results depend on the processing

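No paired analysis was possible because the groups share no replicate number. The Stat4 difference lay between −1.27 and −0.90 over the 22 alternatives. It was smallest without Control 1, 2 and 12 together, and −0.91 when genes at 0 were a covariate. Stat4 was picked on this contrast and its groups did not overlap, so leaving libraries out could not turn its sign. The filters on low values could not change its fitted value, so the range is a description. The differences of Stat2, Stat3 and Stat5a were below 0 and that of Stat6 above 0 in all 22 alternatives. Those of Stat5b, Jak1, Jak2 and Tyk2 took both signs, Tyk2 from −1.08 (genes at 0 as a covariate) to 1.01 (without Control 18), and none of the 8 members other than Stat4 passed in any alternative (lowest adjusted p 0.615). The count of genes called over the whole table was 2; it was 0 with edgeR, quantile normalization, genes at 0 as a covariate, a minimum mean of 50, and without Control 1, 2 and 12 together, 54 with DESeq2, and 0 to 17 with 1 library left out (17 without Control 6). At an unadjusted p under 0.05 edgeR had 286 genes. Of the ligand list DESeq2 called 1 gene, Ebi3. The difference in the B cell marker total, −4.25 per 1000000, turned to 3.45 without its most abundant member and ranged from −16.5 to 4.44 with 1 library left out (2.54 without LOY 5, 4.44 without LOY 10, 3.08 without Control 18), and that of the monocyte total, 133, turned to −73.3 without Csf1r. The T and NK marker difference kept its sign, with an adjusted p from 0.0779 to 0.5. Spread between libraries limits the scarcer genes: the 95% intervals of Stat2, Stat5a, Jak2 and Tyk2 reach beyond −1 on the log2 scale, whereas Jak1, Stat3, Stat5b and Stat6 had an SE of 0.11 to 0.14.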
